A study of Mus musculus with 3 samples.

Results

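The slit diaphragm is the junction between the foot processes of podocytes, the epithelial cells that wrap the capillaries of the kidney glomerulus. The 9 genes described here encode parts of that junction or proteins that hold it to the cell cortex: Nphs1, Kirrel, Fat1, Ptpro, Cd2ap, Magi2, Tjp1, Plce1 and Myo1e. They were taken by symbol from the gene table, and all 9 were found among its 31058 rows. Nephrin, the product of Nphs1, and its relative NEPH1, the product of Kirrel, reach across the gap between neighbouring foot processes and bind each other through immunoglobulin domains. Their short intracellular tails are phosphorylated and dock adaptors and scaffolds, which couple the junction to actin, endocytosis and phospholipid signalling. Inherited loss of several of these proteins causes nephrotic syndrome, in which protein leaks into the urine.

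Cells from glomeruli of healthy C57Bl/6 mice were profiled by droplet sequencing of 3′ tags with unique molecular identifiers (UMIs), in 1 male mouse, 1 female mouse and 1 female mouse with deletion of oestrogen receptor alpha, called female ERaKO below. The genotype shared by the 3 mice was Pax2.rtTA with TetO.Cre and R26.Confetti, that is, a doxycycline-switched Cre under a Pax2 driver and a colour reporter, and the third also carried ERalphaKO. Doxycycline was given at 20 days of age and the mice were followed to 90 days, and the labels name the deletion RPC, which in this field stands for renal progenitor cells. The labels do not say which cells had recombined, so a podocyte of the third mouse need not lack the receptor. Each group was 1 mouse and 1 library, so the spread between animals is unknown, no test was made, and every interval below covers counting error only. Values in sets of 3 are in the order male, female and female ERaKO.

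The libraries held 4244, 3555 and 3986 barcodes with 44585342, 44942380 and 47522141 UMIs, and 3220, 2818 and 2530 cells were kept. Pairs of libraries shared 4 to 8 barcodes, of which 1 to 4 were kept in both. More barcodes exceeded 25% mitochondrial UMIs in the female ERaKO library (34.0%) than in the male (21.0%) and female (17.7%) libraries. Podocyte-like cells, named from a marker list that holds none of the 9 genes, numbered 1138, 1323 and 780, with median depths of 7793, 9193 and 7415 UMIs. All 13 podocyte markers were present in them in every library, and their markers of parietal, mesangial and smooth muscle cells summed to 156 CPM or less per list. CPM is the number of UMIs of a gene per 1000000 UMIs of the class. The endothelial-like class is the cluster led by glomerular capillary markers (407, 379 and 181 cells), and the other classes compared most closely are parietal epithelial-like cells of Bowman's capsule (127, 80 and 254) and mesangial-like cells (193, 50 and 150). A further cluster led by Cst12, with 167, 189 and 113 cells, held podocyte markers but none among its 10 leading genes, and it is described apart. One 3′ tag stands for one transcript whatever its length, but the efficiency of tagging differs between genes, so levels are compared between cells and libraries and not between genes.

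Of the 9 genes, 5 are shown by the 250 bases before a RefSeq transcription start in GRCm38.p6, 5′ to 3′ on the coding strand. For Nphs1 and Tjp1 that start lies inside the gene span given below, so it is not the first annotated start. Nphs1 (chr7:30459808-30460057, plus strand) and Ptpro (chr6:137252049-137252298, plus) are shown because their transcripts were nearly restricted to podocytes when set beside parietal, mesangial and endothelial cells. Cd2ap (chr17:42876425-42876674, minus) and Tjp1 (chr7:65371245-65371494, minus) are shown because their transcripts were present in every glomerular class. Kirrel (chr3:87174538-87174787, minus) is shown as the gene that shared the lowest ratio of the receptor deletion with Nphs1. Capitals mark CpG dinucleotides.
Nphs1: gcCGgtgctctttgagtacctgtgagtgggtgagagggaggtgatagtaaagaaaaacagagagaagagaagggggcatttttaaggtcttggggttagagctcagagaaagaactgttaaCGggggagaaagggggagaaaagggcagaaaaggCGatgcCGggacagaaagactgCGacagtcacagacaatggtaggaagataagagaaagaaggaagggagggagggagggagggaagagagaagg
Ptpro: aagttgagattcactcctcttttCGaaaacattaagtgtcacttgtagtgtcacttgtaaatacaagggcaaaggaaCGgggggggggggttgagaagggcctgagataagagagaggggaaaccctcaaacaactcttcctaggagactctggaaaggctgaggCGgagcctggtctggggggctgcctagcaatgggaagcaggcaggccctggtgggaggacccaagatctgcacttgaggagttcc
Kirrel: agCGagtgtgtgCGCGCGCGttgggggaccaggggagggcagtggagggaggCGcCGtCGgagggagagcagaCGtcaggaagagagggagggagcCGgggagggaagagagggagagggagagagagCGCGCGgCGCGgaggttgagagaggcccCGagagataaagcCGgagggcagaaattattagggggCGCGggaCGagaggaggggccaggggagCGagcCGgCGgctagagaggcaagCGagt
Cd2ap: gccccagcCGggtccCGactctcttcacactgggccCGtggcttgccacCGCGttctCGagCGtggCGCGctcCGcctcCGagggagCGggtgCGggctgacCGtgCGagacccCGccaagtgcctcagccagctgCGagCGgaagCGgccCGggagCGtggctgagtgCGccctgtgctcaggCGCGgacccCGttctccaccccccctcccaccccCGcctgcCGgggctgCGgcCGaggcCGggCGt
Tjp1: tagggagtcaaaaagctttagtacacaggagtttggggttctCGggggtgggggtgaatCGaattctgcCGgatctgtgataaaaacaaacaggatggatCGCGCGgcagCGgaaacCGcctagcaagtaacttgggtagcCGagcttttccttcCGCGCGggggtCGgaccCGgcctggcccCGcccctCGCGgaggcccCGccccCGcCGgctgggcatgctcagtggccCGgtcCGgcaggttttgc
The windows of Nphs1 and Ptpro held 5 and 3 CpG dinucleotides, and those of Kirrel, Cd2ap and Tjp1 held 24, 31 and 22, beside a median of 6 over all 32851 windows of this length. In these windows, restriction to podocytes did not follow CpG number over the whole set. Magi2, which was as restricted as Nphs1, has a window with 29 and a second one with 3, and Fat1, which was broad, has 2. The remaining windows, of Plce1 and Myo1e, held 6 and 14. The windows of Nphs1, Tjp1, Fat1 and Plce1 lie inside the gene spans given below. CpG number before the first annotated start of those genes is not given here. The letters GTGGGNG, a core that zinc fingers such as those of WT1 can bind, were found on either strand in 6 of the 10 windows of the 9 genes. Those were the windows of Nphs1, Ptpro, Cd2ap, Tjp1 and Fat1 and 1 of Magi2, so restricted and broad genes were both among them. The same letters were found in 28.1% of all windows. The E-box letters CANNTG were found in 7 of the 10 and in 66.2% of all windows. GTAAACA was found in none of the 10 (3.17% of all windows) and TAATTA in 1, of Magi2 (4.84%). These are matches of letters, not measured binding.

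The receptors and adhesion molecules of the junction come first. Nphs1 (ENSMUSG00000006649, chr7:30458315-30487223 of GRCm38, plus strand) had 1526, 1702 and 1251 CPM in podocytes. The female library was highest and the female ERaKO library lowest. In parietal cells it had 21.4, 34.9 and 43.5 CPM, in endothelial cells 25.7, 12.6 and 13.1, and in mesangial cells 12.9, 15.3 and 10.9. Those levels were 0.7% to 3.5% of the podocyte level, parietal cells lay above mesangial cells in every library, and the range of endothelial cells overlapped both. The 13 podocyte markers, none of which is one of the 9 genes, had median levels of 1.21% to 2.03% of podocytes in the same classes and libraries, so Nphs1 outside podocytes lay near the level of other podocyte RNA there. Ptpro (ENSMUSG00000030223, chr6:137252319-137463233, plus), which encodes the receptor tyrosine phosphatase GLEPP1 of the podocyte surface, had 925, 754 and 815 CPM in podocytes. It stood at 15.9, 7.31 and 9.97 CPM in endothelial cells, 8.63, 5.74 and 3.62 in mesangial cells and 4.58, 2.50 and 9.37 in parietal cells, which was 1.7% of the podocyte level or less.

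Ptpro was also found in macrophage-like cells, at 119, 117 and 124 CPM, or 12.9%, 15.5% and 15.3% of the podocyte level. The 3 libraries were close to each other there, while Nphs1 in the same cells varied from 19.6 to 46.1 and 102 CPM. At a fixed depth of 5000 UMIs per cell, 42.3%, 42.9% and 43.6% of 78, 70 and 55 macrophages had a Ptpro UMI, against 9.0%, 8.6% and 14.5% with an Nphs1 UMI. In podocytes the same shares were 97.3%, 96.3% and 98.0% for Ptpro and 99.8%, 99.7% and 99.6% for Nphs1. Podocyte markers in macrophages had median levels of 0.98%, 3.64% and 5.52% of podocytes, so Ptpro in macrophages stood above that median in each library. The highest of the 13 markers there reached 15.6%, 16.0% and 10.7% of podocytes, so at least 1 marker stood above Ptpro in the male and female libraries.

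Kirrel (ENSMUSG00000041734, chr3:87078593-87174747, minus) had 89.8, 103 and 76.7 CPM in podocytes. It was not limited to them: parietal cells had 39.7, 66.5 and 49.8 CPM, mesangial cells 44.6, 34.5 and 37.4, and smooth muscle and renin cells 41.4, 64.4 and 33.5. The ranges of those 3 classes overlapped, and each reached 33.3% to 64.9% of the podocyte level in its own library. Endothelial cells stood apart with 2.64, 0.332 and 0.623 CPM, from 7, 1 and 1 UMIs, so the male value alone rests on more than 3 counts. Fat1 (ENSMUSG00000070047, chr8:44935447-45052257, plus), a very large atypical cadherin, followed a similar order. Its levels were 285, 249 and 260 CPM in podocytes, 179, 201 and 164 in mesangial cells, 95.6, 94.8 and 82.8 in parietal cells and 9.82, 2.99 and 6.85 in endothelial cells. No range overlapped another, so the order from podocytes to endothelial cells was the same in the 3 libraries.

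The adaptors and scaffolds were broader, with Magi2 as the exception. Magi2 (ENSMUSG00000040003, chr5:19227036-20704792, plus), a scaffold with PDZ domains that binds the nephrin tail, had 1486, 1355 and 1279 CPM in podocytes. It had 32.5, 24.96 and 43.2 CPM in parietal cells, 35.2, 19.1 and 36.8 in mesangial cells and 17.8, 8.64 and 23.7 in endothelial cells, which was 3.4% of podocytes or less. Cd2ap (ENSMUSG00000061665, chr17:42792951-42876665, minus), an adaptor that links nephrin to actin and to endocytosis, had 993, 911 and 882 CPM in podocytes. Mesangial cells had 311, 306 and 281 CPM of Cd2ap, parietal cells 263, 292 and 251, and endothelial cells 214, 205 and 212. The ranges of mesangial and parietal cells overlapped, and endothelial cells lay below both. Intercalated cells of the collecting duct, an epithelium outside the glomerulus, held more Cd2ap than any of these 3 classes, at 381, 449 and 360 CPM. Tjp1 (ENSMUSG00000030516, chr7:65296165-65527781, minus) encodes ZO-1, a tight junction scaffold that tethers junctions to actin in many cell types. Its levels were 684, 586 and 545 CPM in podocytes and 404, 391 and 384 in endothelial cells, or 59.0%, 66.7% and 70.4% of podocytes. Mesangial cells had 261, 299 and 271 CPM and parietal cells 287, 214 and 242, with overlapping ranges.

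Plce1 and Myo1e complete the set. Plce1 (ENSMUSG00000024998, chr19:38481109-38785030, plus), a phospholipase C that also acts on Ras-family proteins, had 473, 416 and 391 CPM in podocytes. Smooth muscle and renin cells had 103, 73.4 and 82.9 CPM and parietal cells 64.1, 50.7 and 69.1. Endothelial cells had 4.91, 1.66 and 9.97 CPM. Mesangial cells had 5.75 CPM in the male and 5.43 in the female ERaKO library and 0 UMIs in the female one, which allows up to 5.74 CPM at 3 counts. Smooth muscle and renin cells and mesangial cells, both mural cells, thus differed in Plce1 by more than 10-fold in the male and female ERaKO libraries. Myo1e (ENSMUSG00000032220, chr9:70207350-70399766, plus), a motor that ties membrane to actin, was the exception of the set. Mesangial cells had 476, 486 and 518 CPM and podocytes 426, 373 and 361, so the mesangial level was 112%, 130% and 143% of the podocyte level. The 2 classes did not overlap on the CPM scale, but the median log2 ratio of podocytes to mesangial cells, −0.38, became 0.0025 with TMM scaling factors, so the order of these 2 classes rests on the scaling. Smooth muscle and renin cells had 190, 187 and 169 CPM, endothelial cells 121, 123 and 158, and parietal cells 55.9, 83.2 and 49.6. At 5000 UMIs, 92.2%, 82.0% and 91.0% of mesangial cells and 82.6%, 80.3% and 79.8% of podocytes had a Myo1e UMI.

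Over the 4 glomerular classes, 8 of the 9 genes had their highest level in podocytes in all 3 libraries, and Myo1e did not. Of 14262 genes measured in those classes, 13.3% met the same rule. The clusters were made without the 9 genes but from the other genes of the same cells, so the count is a description and not a test. Restriction ran from Nphs1, Ptpro and Magi2, at 3.5% of podocytes or less in the 3 other classes, to Tjp1, Cd2ap and Myo1e, each above 12% in every one of them. The distance from parietal cells depended on how cells were classed: the median log2 ratio of podocytes to parietal cells was 7.38 for Ptpro, 5.57 for Nphs1 and 5.47 for Magi2, and it was 5.12, 4.39 and 4.58 with classes assigned cell by cell and 5.37, 4.46 and 4.36 with doublets kept.

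**Figure D1:**
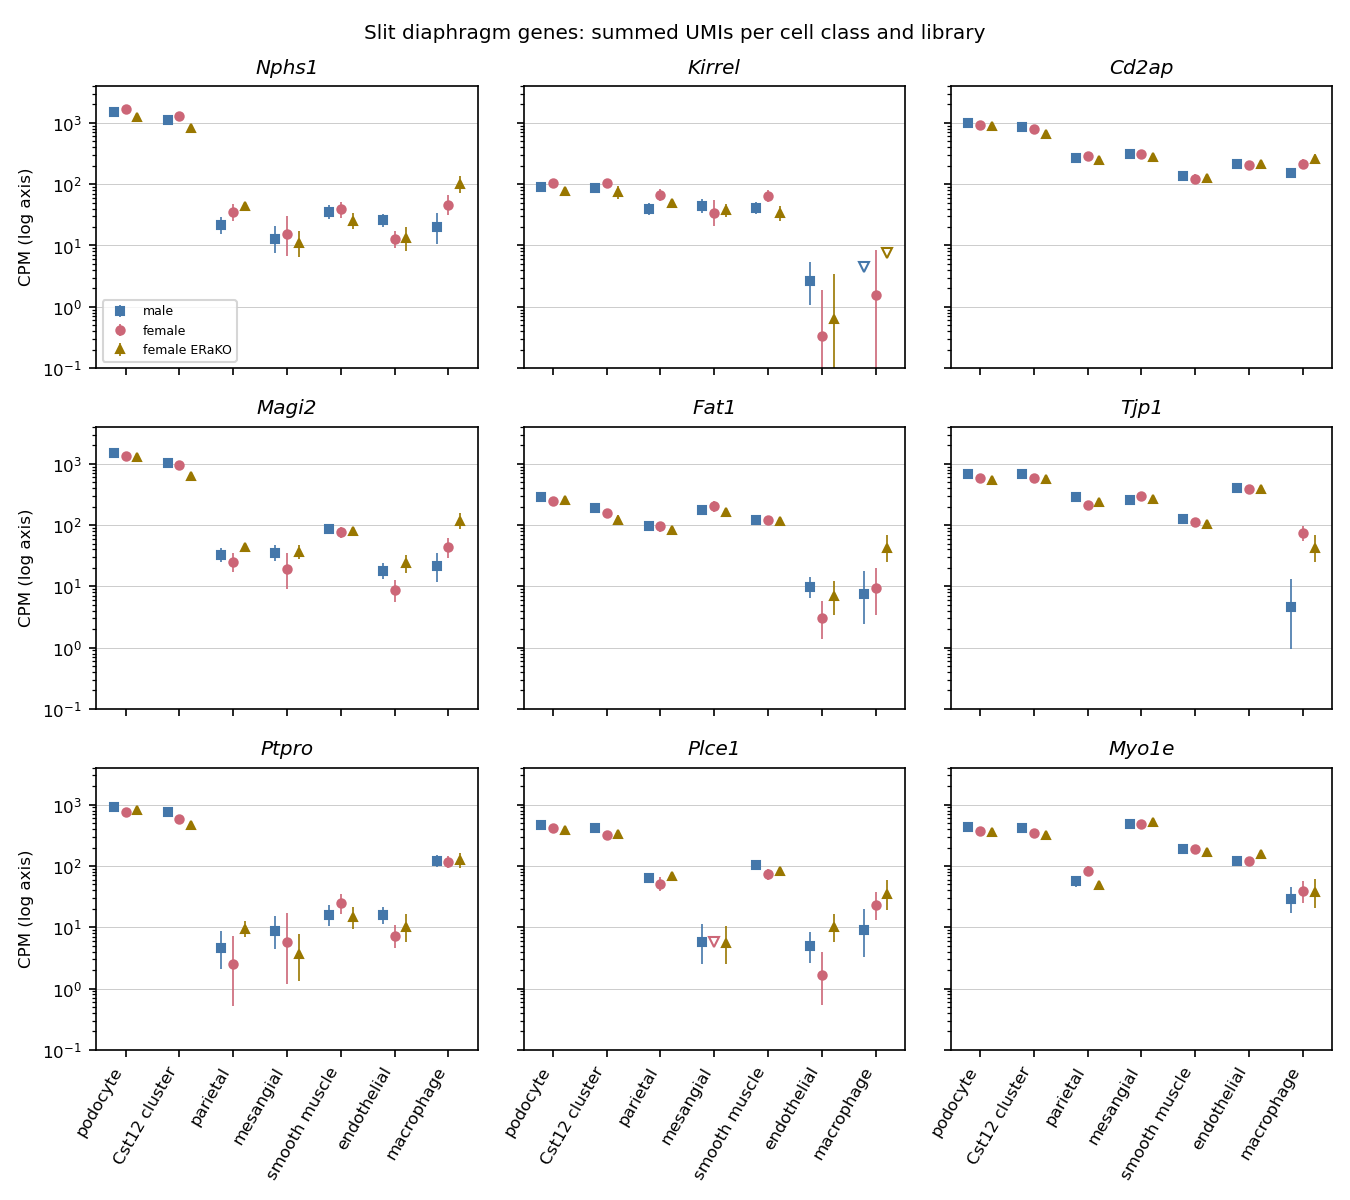
Level of each of the 9 genes (CPM, log axis) in 7 cell classes, with 1 point per library and bars for exact 95% Poisson intervals; open triangles mark the limit of 3 counts where no UMI was found. Nphs1, Ptpro and Magi2 drop from podocytes to parietal, mesangial, smooth muscle and endothelial cells, but much less to the Cst12 cluster. Ptpro rises again in macrophages to 117 to 124 CPM. Mesangial cells lie above podocytes for Myo1e on this scale, an order that was lost with TMM factors.

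The first comparison between mice was male against female in podocytes. No gene of the 9 differed 1.5-fold or more, where 3.92% of 11429 genes did, and 1.40% of the 4079 genes with at least 1000 summed counts. The log2 ratio, taken with a pseudocount of 1 CPM, was below 0 for the 2 immunoglobulin receptors and above 0 for the 7 other genes. It was −0.16 for Nphs1 (95% counting interval −0.19 to −0.13) and −0.20 for Kirrel (−0.32 to −0.09). The highest value was 0.29 for Ptpro (0.26 to 0.33), followed by 0.22 for Tjp1, 0.19 for Fat1, Myo1e and Plce1, 0.13 for Magi2 and 0.12 for Cd2ap. The median of the 9 was 0.19, beside 0.01 over all genes measured.

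The second comparison was female ERaKO against female in podocytes, and it shares the female library with the first. Again no gene of the 9 differed 1.5-fold or more, where 6.56% of 11272 genes did, and 2.30% of the 3659 genes with at least 1000 summed counts. Nphs1 and Kirrel were the lowest, with log2 ratios of −0.44 (−0.48 to −0.41) and −0.43 (−0.57 to −0.29), and they stood at percentiles 6.37 and 6.99 of all genes measured. The 7 other genes lay between −0.11 for Tjp1 (−0.16 to −0.05) and 0.11 for Ptpro (0.07 to 0.16), so Nphs1 and Kirrel had intervals that overlapped with none of them. The intervals of Fat1 (−0.02 to 0.14) and Myo1e (−0.11 to 0.02) included 0. The median of the 9 was −0.08, beside −0.01 over all genes.

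The female library is in both ratios, and it was the highest of the 3 for Nphs1 and Kirrel. Inside the podocyte class, the same library was the lowest of the 3 for several marker lists of other cells, but not for all. All 4 erythroid markers were found in podocytes of each library, and they summed to 811, 8.49 and 653 CPM. The 8 smooth muscle and renin markers summed to 91.4, 37.2 and 156 CPM and the 9 proximal tubule markers to 106, 49.7 and 144 CPM, with none at 0. For thick limb (20.8, 16.9 and 14.9 CPM), distal tubule (23.6, 15.3 and 13.0) and principal cell markers (15.4, 8.30 and 5.92) the female library lay between the 2 others. The 12 endothelial markers summed to 2335, 2383 and 2370 CPM. Only 2 of the 12 were at 10 CPM or more in each library, so that sum rests mainly on 2 genes. Median mitochondrial shares of podocytes were 5.23%, 5.33% and 6.34%. The part of these differences in the Nphs1 and Kirrel ratios was not tested. In bulk sums of a class, fewer cells with a gene and less RNA per cell cannot be told apart. At 5000 UMIs the mean number of Nphs1 UMIs per podocyte was 7.69, 8.40 and 6.32 and that of Kirrel was 0.441, 0.475 and 0.363, in the same order as the sums.

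**Figure D2:**
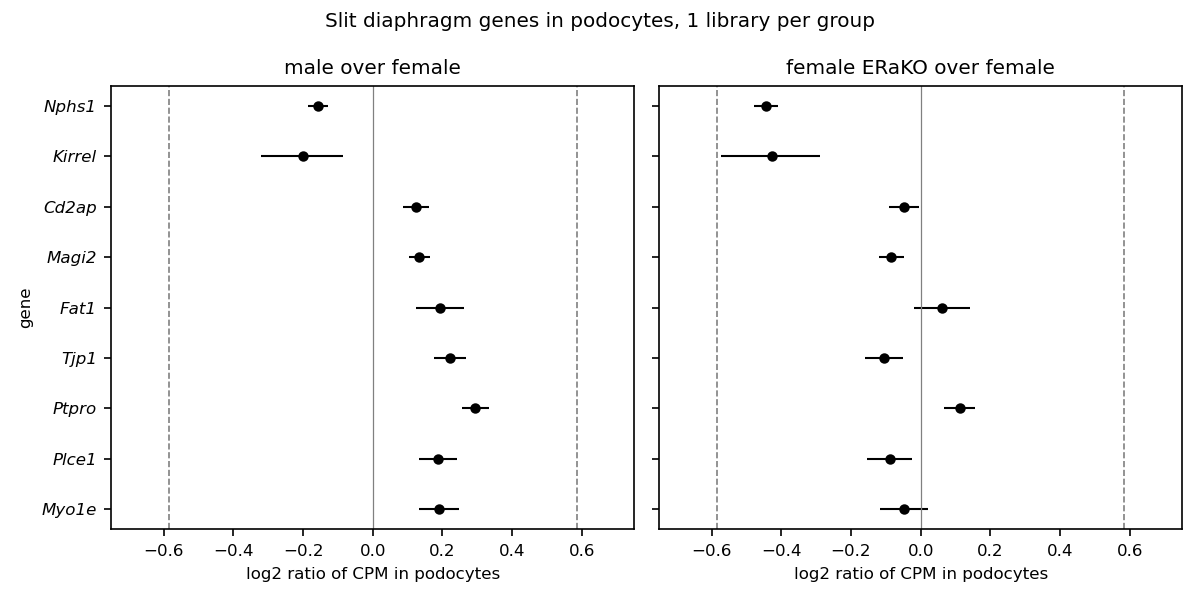
Log2 ratio of CPM in podocytes for male over female (left) and female ERaKO over female (right), with exact conditional 95% Poisson intervals and dashed lines at 1.5-fold. Nphs1 and Kirrel lie below 0 in both panels, at −0.44 and −0.43 in the right one, and all 9 points stay between the dashed lines.

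The 3 clusters that make up the podocyte class differed little in these genes. Within a library, the highest of the 3 cluster levels was 1.01 to 1.27 times the lowest for each gene. The largest of these ratios was for Kirrel in the female library, with 90.9, 115 and 105 CPM in the clusters. Nphs1 was lower in the female ERaKO library in each of the 3 clusters: 1317, 1216 and 1228 CPM beside 1690, 1701 and 1724 in the female library and 1558, 1511 and 1500 in the male library. The ranges of the 3 libraries did not overlap, although the cells of 1 mouse are no replicates of its group.

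Outside podocytes the counts were low and the background larger. In parietal cells, Nphs1 and Kirrel were 1.5-fold or more lower in the male than in the female library (2 of the 8 genes with at least 20 summed counts, beside 15.7% of all genes), with log2 ratios of −0.68 (−1.36 to −0.06) and −0.73 (−1.22 to −0.28). For female ERaKO against female parietal cells, 3 of the 9 were 1.5-fold apart (15.8% of all genes). Myo1e was lower at −0.73 (−1.08 to −0.40), and Magi2 and Ptpro, from 30 and 3 female UMIs, were higher at 0.77 and 1.57. The 13 podocyte markers summed to 954, 804 and 1069 CPM in parietal cells, with none at 0 and medians of 1.21%, 1.40% and 1.82% of podocytes. The 8 smooth muscle and renin markers summed to 1252, 1576 and 3754 CPM there, with 1, 3 and 0 of them at 0. The part of either in the parietal ratios was not tested. In endothelial cells, 4 of 7 genes were 1.5-fold higher in the male library (9.39% of all genes): Nphs1, Magi2, Fat1 and Ptpro, from 26 to 68 male and 9 to 38 female UMIs. All 4 stood at 3.4% of podocytes or less there, and the podocyte markers had medians of 1.56% in the male and 1.24% in the female library; their part in these ratios was not tested. Against the female library, 3 of 8 genes were higher in female ERaKO endothelial cells (12.4% of all genes), Magi2, Fat1 and Plce1, each from 38 UMIs or fewer. The interval of Fat1, from 11 and 9 UMIs, was −0.21 to 2.64 and included 0. In mesangial cells, Magi2 alone was 1.5-fold apart in each comparison (1 of 7 genes in both, beside 19.1% and 19.0%), at 0.85 and 0.91 from 10 female UMIs, and both intervals included 0. The abundant Cd2ap, Tjp1 and Myo1e lay within 1.5-fold in endothelial and mesangial cells in both comparisons.

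Cell-to-cell spread was measured after each podocyte was thinned to 5000 UMIs, which kept 1025, 1323 and 768 cells and left out 113, 0 and 12 shallower ones. The median podocyte had UMIs of 8 of the 9 genes in each library, and 18.6%, 16.6% and 13.8% had all 9. Endothelial cells had a median of 2, parietal cells 3, 2 and 2, mesangial cells 3 and macrophages 1. Kirrel was the gene most often missing from a podocyte, with a UMI in 35.7% (32.8 to 38.7), 37.0% (34.4 to 39.6) and 29.6% (26.3 to 32.9) of cells, and it was found in 51.7%, 60.2% and 46.8% before thinning. Those shares were close to what the mean alone gives: 64.3%, 63.0% and 70.4% of podocytes had no Kirrel UMI, beside 64.3%, 62.2% and 69.5% for a Poisson count of the same mean. Fat1 was found in 73.4%, 68.0% and 69.5% of podocytes, Myo1e in 82.6%, 80.3% and 79.8% and Plce1 in 86.0%, 83.4% and 83.6%. The 5 other genes were found in more than 90% in each library.

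The variance of a gene's UMIs over podocytes, divided by its mean, is 1 for counting error alone. It ran from 0.998 for Kirrel in the male library to 1.59 for Magi2 in the female library, beside medians of 1.06, 1.05 and 1.05 over 2898, 2840 and 2832 genes with a mean of at least 0.3 UMIs. For Nphs1 it was 1.58, 1.49 and 1.31, and for Kirrel 0.998, 1.08 and 1.09. After counting error was taken off, Nphs1 varied between podocytes by 27.6%, 24.1% and 22.3% of its mean, Magi2 by 27.8%, 30.1% and 25.8% and Plce1 by 32.7%, 32.9% and 33.0%. Kirrel varied by 0%, 40.7% and 49.7%, and the male value was set to 0% because the variance lay below the mean. Its spread was the lowest of the set in the male library and the highest in the female and female ERaKO libraries. The squared value of this spread placed Nphs1 at percentiles 52.3, 47.2 and 47.1 of the genes with that mean, near the middle. Kirrel stood at percentiles 19.3, 78.0 and 87.8, from means of only 0.441, 0.475 and 0.363 UMIs, and no interval is given for its spread. The central 80% of podocytes held 4 to 12, 4 to 13 and 3 to 10 Nphs1 UMIs.

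The 9 genes together had a median of 34.0, 31.0 and 28.5 UMIs per podocyte, and the variance of that sum was 73.2, 71.9 and 55.8, beside 48.3, 43.4 and 37.5 for the sum of the 9 single variances. The number of genes detected also varied more than independent detection gives, with variances of 0.911, 1.07 and 0.931 beside 0.781, 0.905 and 0.837. All 9 were detected in 18.6%, 16.6% and 13.8% of podocytes, where independent detection would give 16.9%, 14.2% and 12.0%. The Pearson r of log(1 + UMIs) over podocytes was above 0 in 34, 36 and 34 of the 36 pairs of genes and in 32 pairs in all 3 libraries. Among the background pairs of all genes compared, 52.7%, 51.3% and 51.2% were above 0 in the single libraries. The values were small, with medians of 0.07, 0.09 and 0.06 and highest values of 0.15, 0.21 and 0.17. Among the 8 genes with a mean of at least 1 UMI the medians were 0.08, 0.10 and 0.06, where all pairs of genes above that mean had medians of 0.01, 0.00 and 0.01 and 95th percentiles of 0.10, 0.09 and 0.10. Magi2 with Plce1 (0.15, 0.16 and 0.06) and Cd2ap with Tjp1 (0.15, 0.14 and 0.13) were among the highest, and Kirrel with Magi2 (0.02, 0.08 and −0.02) among the lowest. The sum of the 9 had an r of 0.32, 0.23 and 0.24 with the sum of the 13 podocyte markers, of 0.15, 0.25 and 0.12 with the log depth before thinning and of −0.03, −0.07 and −0.08 with the mitochondrial share. The part of these quantities in the pair values was not tested.

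Co-detection, the log2 odds ratio of finding 2 of the genes in the same podocyte, had medians of 0.83, 0.56 and 0.52 over the 36 pairs with 0.5 added to each count. Those medians are too high by construction, because in 13, 5 and 12 of the pairs fewer than 0.5 cells would be expected to lack both genes, and the added 0.5 then sets the ratio. In the 13, 20 and 12 pairs with at least 5 such cells expected, the medians were 0.38 (−0.25 to 0.91), 0.40 (0.20 to 0.65) and 0.22 (−0.17 to 0.53), with the order-statistic interval over pairs, and 10, 18 and 8 pairs were above 0. Medians over all pairs of genes under the same rule were 0.01, 0.01 and 0.01, with 95th percentiles of 0.45, 0.39 and 0.48. Of those pairs, 52.4%, 51.4% and 50.8% were above 0. Of the 12 pairs that met the rule in all 3 libraries, 6 were above 0 in each. The share of all pairs of genes above 0 in all 3 libraries is not given here. Of the 3 intervals, those of the male and female ERaKO libraries included 0. Pairs share genes, so these intervals do not rest on independent values. Co-detection could not be measured for pairs with Nphs1, which almost no podocyte lacked.

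**Figure D3:**
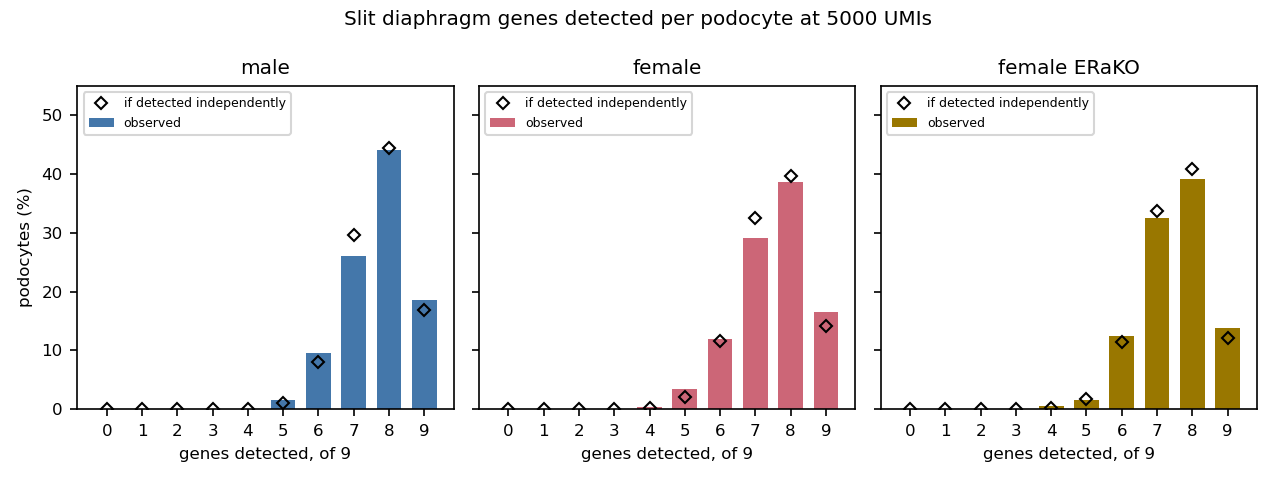
Share of podocytes (%) by the number of the 9 genes with a UMI at 5000 UMIs per cell, with 1 panel per library; bars are observed and diamonds are the shares if each gene were detected independently at its own rate. The bars peak at 8 genes in each library and lie slightly above the diamonds at 9 genes (18.6%, 16.6% and 13.8% beside 16.9%, 14.2% and 12.0%).

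The cluster led by Cst12 kept most of the slit diaphragm set but not evenly. It had 1103, 1300 and 819 CPM of Nphs1, or 72.3%, 76.4% and 65.4% of the podocyte level. Fat1 stood lowest against podocytes, at 188, 160 and 122 CPM (66.1%, 64.2% and 47.1%), and Magi2 had 1044, 944 and 643 CPM (70.2%, 69.6% and 50.3%). Tjp1 (101%, 100.3% and 103%) and Kirrel (95.5%, 102% and 96.9%) were level with podocytes, and Myo1e stood at 96.2%, 91.9% and 87.4%. Fat1 was 1.5-fold or more lower in each library, and Nphs1, Magi2 and Ptpro were so in the female ERaKO library alone. That made 1, 1 and 4 of the 9 genes, where 6.47%, 5.16% and 10.5% of all genes were 1.5-fold lower. Of the 13 podocyte markers, 6, 6 and 9 were that much lower, with median log2 ratios of −0.53, −0.53 and −0.97, beside −0.20, −0.35 and −0.39 for the 9 genes. The cluster was defined by other genes of the same cells, so these ratios are a description. Between libraries, Nphs1 in the cluster was lower in female ERaKO than in female, at a log2 ratio of −0.67 (−0.78 to −0.55), and was the only 1 of the 9 past 1.5-fold there (17.0% of all genes). Marker lists of other cell types differed between these libraries in both directions. In the cluster the 8 smooth muscle and renin markers summed to 1300, 1893 and 3534 CPM (1, 2 and 0 at 0), the 8 parietal markers to 550.2, 442 and 667 CPM (1, 0 and 0 at 0) and the 7 mesangial markers to 244, 209 and 354 CPM (0, 0 and 1 at 0). The part of these markers in the Nphs1 ratio was not tested. No gene of the 9 was past 1.5-fold for male against female in the cluster (11.4%).

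**Figure D4:**
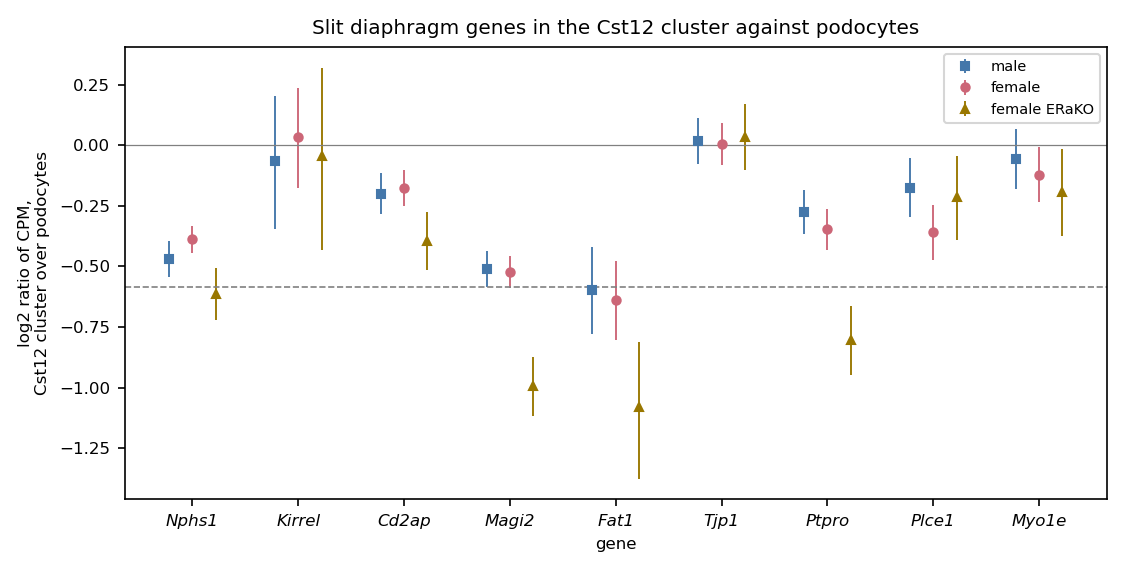
Log2 ratio of CPM in the Cst12 cluster over podocytes for each of the 9 genes, with 1 point per library, exact conditional 95% Poisson intervals and a dashed line at 1.5-fold lower. Tjp1 and Kirrel lie near 0, and Fat1, Magi2 and Nphs1 lie lowest in the male and female libraries. In the female ERaKO library Fat1, Magi2, Ptpro and Nphs1 lie lowest, below their points in the other libraries.

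A wider list of 49 genes tied to the slit diaphragm, none of them among the 9, was followed in the same podocytes, and 42 had at least 20 summed counts in both comparisons. Its receptors and adhesion molecules (6 of 11 measured), junction scaffolds and polarity proteins (14 of 15) and actin and endocytosis genes (11 of 12) had no gene 1.5-fold apart in either comparison. Among the 11 adaptors and kinases, 1 gene was: Pik3r1, a regulatory subunit of phosphoinositide 3-kinase, which nephrin signalling recruits. Pik3r1 had 74.2, 45.1 and 82.1 CPM, so the female library was low, with log2 ratios of 0.71 (0.57 to 0.87) for male and 0.85 (0.70 to 1.03) for female ERaKO against the same female library. That is 1 of 42 genes in each comparison, beside 3.92% and 6.56% of all genes, and the medians of the 42 were 0.10 and 0.03. Pik3r1 was far higher in mesangial cells, at 785, 584 and 625 CPM. It had 122, 101 and 87.5 CPM in parietal cells and 61.2, 53.2 and 59.8 in endothelial cells. Inside podocytes the 7 mesangial markers summed to 36.5, 23.4 and 39.8 CPM, also lowest in the female library. The part of RNA from other cells in the Pik3r1 ratios was not tested. Synpo, which encodes the actin-bundling synaptopodin, had 1513, 1461 and 1415 CPM. Arhgap24, which switches off Rac-type GTPases, had 992, 1004 and 918 CPM, and the polarity scaffold Mpp5 had 894, 835 and 803. Srgap1, which acts downstream of Slit and Robo, had 1051, 823 and 1033 CPM, with log2 ratios of 0.35 (0.32 to 0.39) and 0.33 (0.29 to 0.37). Of the 49 genes, 14 had their highest level in podocytes of the 4 classes in all libraries, beside 13.3% of all genes measured.

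Kirrel2, a close relative of Kirrel, was chosen for mention after its values were seen. Its annotated start lies 625 bases from the first annotated start of Nphs1, on the opposite strand (chr7:30447534-30457690, minus). That Nphs1 start is not the one whose window is shown above. It had 3.17, 4.09 and 5.22 CPM in podocytes, from 33, 63 and 37 UMIs, beside 15906, 26243 and 8875 UMIs of Nphs1. Its log2 ratio for female ERaKO against female was 0.29 (−0.27 to 0.96), which gives no direction.

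The genes whose levels ran most like each of the 9 were found by Pearson r of log2(CPM + 1) over 27 sums, from 9 classes in 3 libraries. The sums of 1 library share its depth and its free RNA, so r describes a pattern over these classes. The Cst12 cluster is among them, and so is a small fibroblast-like cluster (44, 35 and 52 cells) that held much podocyte RNA. Podocyte markers in the fibroblast-like cluster had median levels of 9.87%, 52.0% and 31.3% of podocytes, and Nphs1 ranged from 227 to 716 CPM there. The part of podocyte RNA of such classes in r was not tested. Nphs1 was most like Necab3 (0.98), Thsd7a (0.97) and Clic3 (0.97), and Magi2 was most like Nphs1 itself (0.97). Kirrel and Fat1 shared 2 of their 3 nearest genes, Igfbp7 and Hoxc6, with r of 0.98 for Kirrel's nearest, Rasl11a, and 0.96 for Fat1's nearest, Hoxc6. Plce1 was most like Enpep (0.97), which encodes aminopeptidase A. Cd2ap was most like Galc (0.94) and Tjp1 most like Smim10l1 (0.95). Myo1e was most like Actn4 (0.94), which encodes an actin cross-linker.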

How the data were processed

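Cells from glomeruli of 3 mice gave 1 droplet library each, 1 per group of the labels. The authors deposited UMI counts for each gene in each barcode, not normalised, and the submitters' processing notes name Cell Ranger 6.1.2, STAR 2.7.5a and mm10. The rule by which barcodes were kept before deposit is not given in the sources used here. Barcodes with fewer than 500 genes or over 25% mitochondrial UMIs were dropped. Doublets were the top Scrublet scores at 0.8% per 1000 barcodes (113, 82 and 83 cells), since Scrublet's own threshold marked only 2 cells in the third library. Clusters came from scanpy 1.11.5 (2000 variable genes without the 9 genes, 30 components, 15 neighbours, Leiden resolution 1) and numbered 25. A cluster took the name of a marker list, read as X-like, if its score was at least 1 and led the next by 0.75, at least 3 markers were 2-fold up, and its top 10 genes held at least 1 of its own markers and no more of any other list. The last condition and the omission of the erythroid list were set after the clusters were seen. Unnamed clusters were left out, except the Cst12 cluster, which was described apart and was 1 of the 9 classes in the search for alike genes.

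Counts were summed per class and library and scaled to CPM. Log2 ratios used a pseudocount of 1 CPM and genes with at least 20 summed counts, with exact conditional 95% Poisson intervals, and shares have Clopper-Pearson intervals. UMIs mark molecules, but intervals and limits of 3 counts cover counting error only. Podocyte sums rested on 10426338, 15421137 and 7091822 UMIs. Gene positions are GENCODE M21 and promoter windows RefSeq GRCm38.p6 (9 of 9 genes matched). Steps were tested on simulated data. There the co-detection ratio over all pairs was above 0 for independent cells, so pairs with at least 5 cells expected to lack both were added. The 9 genes, the lists and the tests were chosen with earlier results of these data known. Genes named besides the 9 were the 3 most alike by r and, of the wider list, the 5 highest in female podocytes and any 1.5-fold apart; some genes that met this rule are not reported here. Alternatives were other scalings, pseudocounts, cell filters, clusterings, class rules and depths.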

Additional observations from a re-analysis of the deposited data

How the results depend on the processing

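No paired analysis was possible because each group is 1 library. The count of the 9 genes 1.5-fold apart in podocytes stayed at 0 in both comparisons under the 15 other settings run, Scrublet's own threshold among them, which was chosen after seeing the data. The count highest in podocytes stayed at 8. Over all settings the log2 ratio of female ERaKO to female podocytes ran from −0.47 to −0.40 for Nphs1 and from −0.45 to −0.33 for Kirrel, and that of male to female from −0.19 to −0.13 and from −0.23 to −0.15. No ratio of the 9 genes in podocytes changed sign. Podocyte ratios to the 3 other classes left the spread of the libraries in 59 of 324 values. The sign changed for Myo1e against mesangial cells, whose median of −0.38 ran from −0.54 to 0.0025, the last with TMM factors. Against parietal cells the median ran from 5.12 to 7.70 for Ptpro, 4.39 to 5.89 for Nphs1 and 4.36 to 5.83 for Magi2, lowest with classes assigned cell by cell or, for Magi2, with doublets kept. The median number of genes detected was 7 in the male and in the female library at 3000 UMIs, where fewer UMIs are drawn, and the all-pair co-detection medians were then 0.33 and 0.28. Depth limits Kirrel, the mesangial sums of the female library (50 cells), and co-detection of genes that almost every podocyte holds.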
